A study of Homo sapiens with 16 samples.

Results

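The 9 genes described here encode proteins of the azurophil (primary) granules of neutrophil and monocyte precursors, together with lysozyme: MPO, ELANE, PRTN3, AZU1, CTSG, PRSS57, CST7, LYZ and SRGN. They were taken by gene symbol from a table of 60603 genes, and all 9 were found in it. The RNA came from SKNO-1 and U-937, human lines labelled as acute myeloid leukaemia, in 16 libraries. SKNO-1 carries the RUNX1-RUNX1T1 fusion and was given GM-CSF at 10 ng/mL in its medium, while U-937 has monocytic character. Each line formed 4 groups of 2 libraries, treated for 24 h with the solvent DMSO, with all-trans retinoic acid (ATRA, which activates retinoic acid receptors) at 0.1 µM, with Corin (an inhibitor that joins a block of the demethylase LSD1 to one of the histone deacetylases HDAC1 and HDAC2 in the CoREST complex) at 0.1 µM, or with both agents. Each is a single established line. The labels do not say that the 2 libraries of a group came from separate cultures, so the p-values measure only the spread between these libraries.

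Azurophil granules are filled at the promyelocyte stage, when their genes are transcribed together for a short time. Myeloperoxidase is made as a haem protein, the serine proteases elastase, proteinase 3 and cathepsin G are cut to their active form by the dipeptidase cathepsin C, and the proteoglycan serglycin carries the sulfated chains on which these basic proteins are packed. C/EBP factors, PU.1, RUNX1 with CBFB, and MYB are the classic regulators of these genes. Lysozyme is stored in all neutrophil granule types and keeps being made in monocytes and macrophages, after the other genes have been shut down.

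Library totals ran from 32.8 to 37.8 M estimated counts in SKNO-1 and from 28.4 to 37.6 M in U-937, and the 9 genes together made up 0.260 to 0.489% of the counts in SKNO-1 and 0.248 to 0.556% in U-937. HOXA9 and HOXA10, expressed in every U-937 library, had 0 counts in all SKNO-1 groups, and summed T cell markers were at most 3.23 CPM (counts scaled to a common library total), stromal markers 0.849 and erythroid markers 0.0679. B cell markers summed to 4.13 to 13.8 CPM, with the defining MS4A1 at 0 in every group. The summed mast cell, basophil and eosinophil markers moved with treatment: they were 85.0 to 107.5 CPM in SKNO-1 with DMSO or ATRA, 61.0 and 61.2 with Corin and 34.9 and 35.6 with both agents, and 24.6 to 37.6 CPM in U-937 with DMSO or Corin against 10.3 to 12.2 in the libraries with ATRA. In U-937 CPA3, HDC, EPX and CLC had 0 counts with DMSO and with ATRA, so that sum was TPSAB1 and PRG2. With both agents PRG2 was at 0 too, which left TPSAB1 alone. The summed myeloid markers of U-937 were 345.5 to 354.5 CPM with DMSO or Corin, 613 and 639 with ATRA and 868.5 and 893 with both agents, and those of SKNO-1 stayed between 272 and 368 CPM. The part of these markers in the results on the 9 genes was not tested. In bulk RNA, fewer cells of a type and less RNA per cell cannot be told apart. The SKNO-1 DMSO libraries stood further apart than any other pair, with an SD of the log2 difference of 0.361 against 0.108 to 0.208 in the other groups. That difference followed GC content (Pearson r = 0.783 across 9338 genes, which are not independent replicates). Weaker trends with GC content were present in other pairs: r was 0.570 in U-937 DMSO, 0.406 in U-937 with both agents and -0.420 in SKNO-1 with ATRA. Among the members, the transcripts of PRSS57, ELANE, PRTN3 and AZU1 are 65.4 to 67.6% G or C. PRSS57 was 3.34-fold higher in the first SKNO-1 DMSO library than in the second, ELANE 2.36-fold, AZU1 2.24-fold and PRTN3 2.07-fold. MPO, CTSG and CST7, at 57.07, 55.3 and 56.45% G or C, were 1.394-, 1.385- and 1.323-fold higher. The AT-rich LYZ and SRGN were at 0.927 and 0.852 times the second library's level. In U-937 DMSO the first library was higher 1.79-fold for AZU1, 1.40-fold for ELANE and 1.36-fold for PRTN3. CTSG and CST7 were at 1.085 and 1.016 times the second library's level there, and LYZ and SRGN at 0.885 and 0.904 times. The part of GC content in the difference of single genes was not tested.

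**Figure D1:**
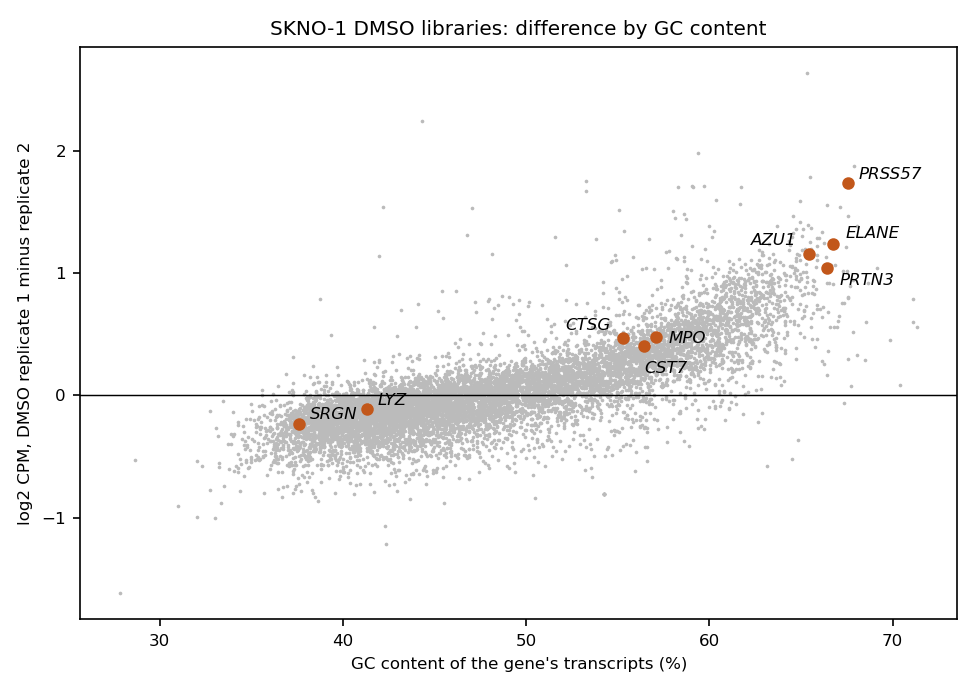
Difference between the SKNO-1 DMSO libraries (log2 CPM, replicate 1 minus replicate 2) against the GC content of each gene's transcripts in percent; grey points are 9338 genes and orange points the members. PRSS57, ELANE, AZU1 and PRTN3 lie at the GC-rich end and above 1, and SRGN and LYZ lie below 0.

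The lines expressed different parts of the set before treatment. MPO, the peroxidase that makes hypochlorous acid and the classic marker of myeloid blasts, had 126269 and 99507 counts in the SKNO-1 DMSO libraries (3652 and 2620 CPM) and 4 and 8 counts in those of U-937, a log2 difference of -14.06 (SE 0.25, adjusted p = 1.52e-18). PRSS57, a serine protease of the same granules with arginine specificity, followed the same order, with 49.3 and 14.7 CPM in SKNO-1 and 8 and 1 counts in U-937 (-7.85, SE 0.79, adjusted p = 1.22e-05). CTSG, cathepsin G, was the reverse, at 12.6 and 9.08 CPM in SKNO-1 and 713 and 658 CPM in U-937 (5.86, SE 0.16, adjusted p = 7.58e-16). PRTN3, AZU1, LYZ, CST7 and SRGN were higher in U-937 too, by 2.29, 1.84, 1.77, 1.37 and 1.32 on the log2 scale. ELANE was the 1 member that did not pass (0.80, SE 0.33, adjusted p = 0.0561). It did with DESeq2 (0.0216), on library totals (0.0124) and with the GC trend removed (8.79e-08). Over the fits that left out a library its value ranged from 0.33 to 1.57, the highest without SKNO-1 DMSO replicate 1. Thus 6 members were higher and 2 lower in U-937, in a comparison that called 64.8% of all 19872 genes tested (31.7% higher and 33.1% lower), so a high share of calls is not particular to these genes. Line, medium and origin cannot be told apart here. Without SKNO-1 DMSO replicate 1 the differences were 2.93 for PRTN3, 2.57 for AZU1 and -6.70 for PRSS57, and without U-937 DMSO replicate 1 that of PRSS57 was -9.81.

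**Figure D2:**
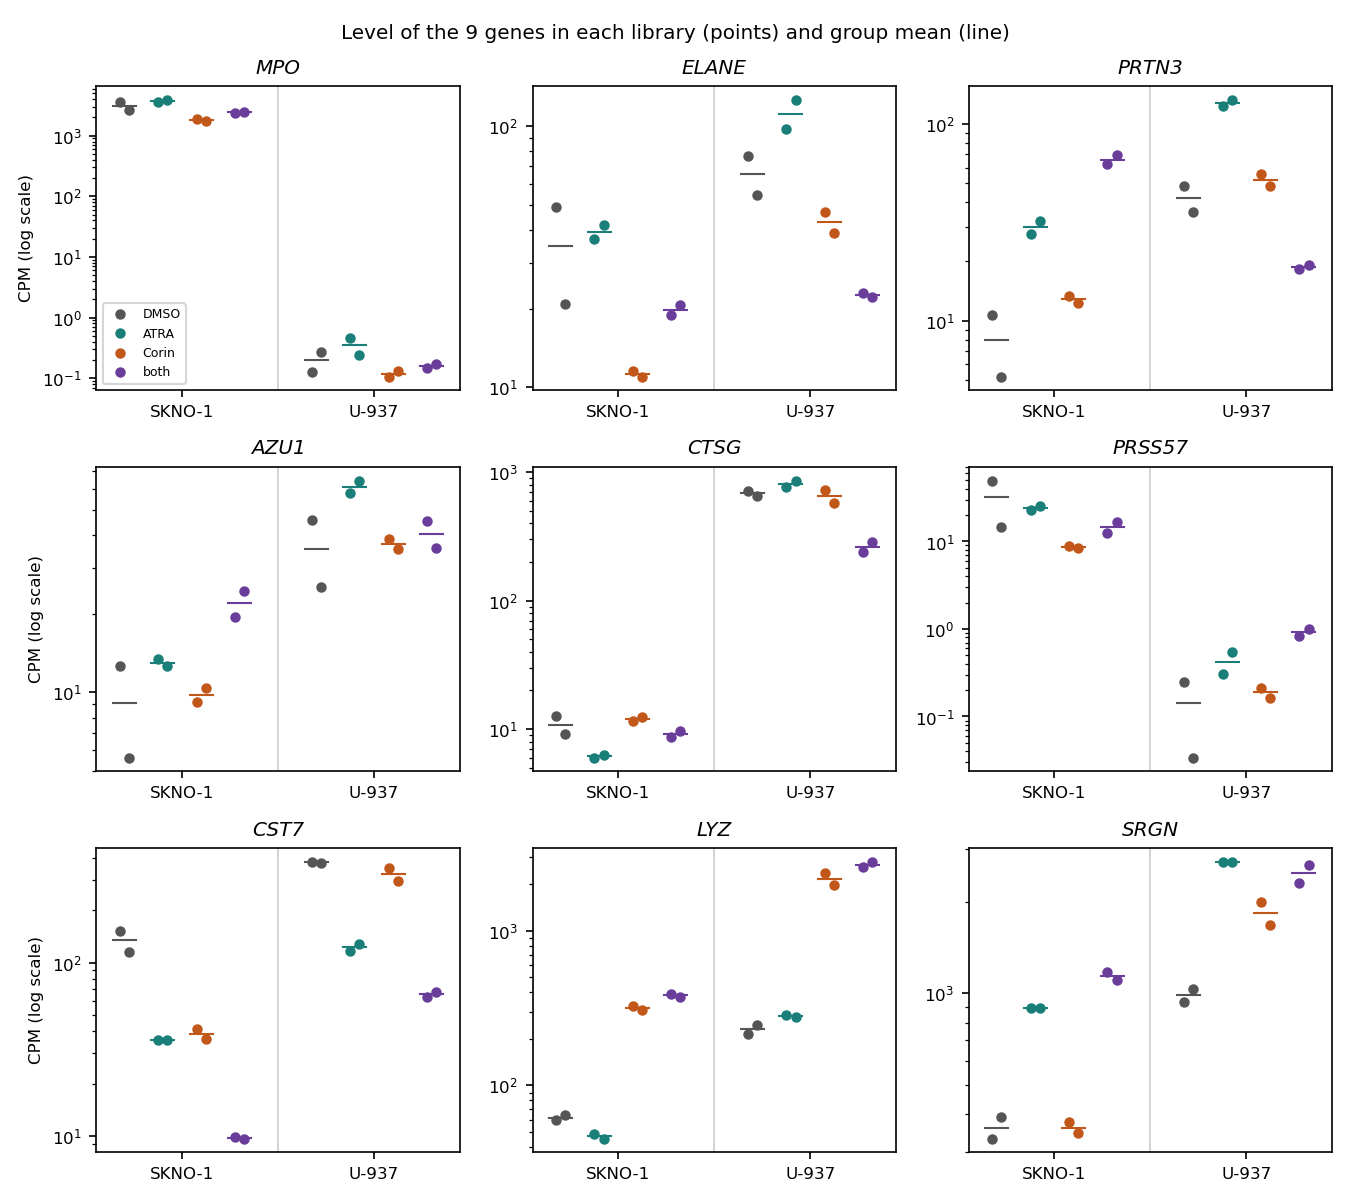
Level of each member in CPM on a log axis, with SKNO-1 left and U-937 right of the grey line in each panel; points are single libraries and short lines are group means (n = 2). MPO and PRSS57 are high in SKNO-1 and near the floor in U-937, CTSG is the reverse, and LYZ is raised in every library with Corin.

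On the authors' TPM scale, which corrects for transcript length and allows genes to be compared within a library, MPO stood at 849 and 866 TPM in SKNO-1 DMSO and ranked 78 and 89 among 19975 protein-coding genes. SRGN came next in that group with 210 and 355 TPM, followed by CST7 with 136 and 148. LYZ (36.5 and 53.8 TPM) overlapped ELANE (42.4 and 26.0), which overlapped PRSS57 (35.7 and 15.2), and below them CTSG (10.8 and 11.3), PRTN3 (8.53 and 5.94) and AZU1 (6.89 and 4.11) were the lowest, the last pair overlapping. In U-937 DMSO the order was led by SRGN (814 and 929 TPM) and CTSG (839 and 799), which overlapped, then CST7 (467 and 475) and LYZ (169 and 202). ELANE (91.2 and 67.0 TPM), PRTN3 (53.0 and 40.2) and AZU1 (31.8 and 20.4) came below without overlap, and PRSS57 (0.25 and 0.04) and MPO (0.04 and 0.09), which overlapped, were at the bottom. By rank, SRGN reached places 14 and 15 in U-937 with ATRA, and LYZ places 18 and 19 with both agents.

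MPO has its gene on the minus strand of chr17:58269855-58280935 (GRCh38), the coordinates of GENCODE release 44 being used throughout. In SKNO-1 it stood at 3652 and 2620 CPM with DMSO, 3571 and 3902 with ATRA, 1880 and 1756 with Corin and 2373 and 2454 with both agents. The libraries with Corin alone were the lowest, those without Corin the highest, and those with both agents lay between, with no overlap. MPO fell with Corin to 0.580 times the DMSO mean (log2 fold change -0.79, SE 0.14, adjusted p = 0.00308) and, among cells given ATRA, it was lower when Corin was added (-0.63, SE 0.14, adjusted p = 0.00659). Neither ATRA alone (0.25, adjusted p = 0.393) nor both agents against DMSO (-0.38, adjusted p = 0.0513) passed, the latter being called with DESeq2 (0.00548). Leaving out ATRA replicate 2 or the first library with both agents ended the call for Corin added to ATRA (adjusted p up to 0.0600). In U-937 MPO had 4 to 17 counts per library and was too low to be tested in that line.

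ELANE, neutrophil elastase (chr19:851014-856247, plus strand), followed MPO in SKNO-1. Its levels there were 48.9 and 20.8 CPM with DMSO, 37.1 and 41.6 with ATRA, 11.5 and 10.99 with Corin and 18.98 and 20.7 with both agents. The Corin libraries were the lowest, and the ATRA pair lay between the DMSO pair. Elastase RNA fell with Corin (-1.63, SE 0.34, adjusted p = 0.00687), and the ratio of means was 0.323. In U-937 it stood at 76.5 and 54.5 CPM with DMSO, 97.0 and 126 with ATRA, 46.8 and 38.8 with Corin and 23.0 and 22.2 with both agents, with no overlap between any groups. It rose with ATRA (0.77, SE 0.18, adjusted p = 0.00645) and fell with both agents (-1.54, SE 0.19, adjusted p = 4.86e-05), to 0.203 times the ATRA level. Corin alone gave -0.61 in U-937 (adjusted p = 0.0559), which passed with DESeq2 (0.0017) and with the GC trend removed (0.000267). The SKNO-1 Corin value was -0.91 without DMSO replicate 1, and the call was lost without either Corin library (adjusted p = 0.0535 and 0.0620). The U-937 ATRA call was lost when only the 4 libraries compared were fitted (adjusted p = 0.110).

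PRSS57 (chr19:685546-695498, minus strand, overlapping the ribosomal protein pseudogene RPS2P52, so its counts are less certain) fell in SKNO-1 with Corin and rose in U-937 with both agents. In SKNO-1 it was at 49.3 and 14.7 CPM with DMSO, 22.7 and 25.4 with ATRA, 8.89 and 8.49 with Corin and 12.6 and 16.9 with both agents. The DMSO pair spanned the ATRA pair and reached down into the group with both agents, and the Corin pair lay below all others. PRSS57 fell with Corin (-1.88, SE 0.48, adjusted p = 0.0177), a value that was -0.79 without DMSO replicate 1 and that did not pass without either Corin library (adjusted p = 0.0950 and 0.106). In U-937 the counts were 8 and 1 with DMSO, 11 and 18 with ATRA, 8 and 5 with Corin and 28 and 29 with both agents. At under 1 CPM, the gene rose with both agents (2.61, SE 0.62, adjusted p = 0.000635), and this value ranged from 1.84 without DMSO replicate 2 to 4.59 without DMSO replicate 1.

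PRTN3, proteinase 3, and AZU1, azurocidin, are adjacent on the plus strand of chromosome 19 (PRTN3 at chr19:840999-848175, AZU1 at chr19:825097-832018). AZU1 is a relative of the proteases that has lost the catalytic residues and acts as an antimicrobial protein and monocyte attractant. The RefSeq promoter table (GRCh38.p14) holds 4 of the 9 members, and the 250 bases before their starts are shown because PRTN3 and AZU1 both rose in SKNO-1 with both agents, while CTSG and PRSS57 were not called there. RefSeq places the start of AZU1 inside the GENCODE gene. MPO, ELANE, CST7, LYZ and SRGN are not among these entries. The stretches are chr19:840749-840998 for PRTN3, chr19:827587-827836 for AZU1, chr14:24576251-24576500 for CTSG and chr19:695453-695702 for PRSS57, the last 2 read on the minus strand. Capitals mark the letters of 7 searched motifs on either strand.
PRTN3: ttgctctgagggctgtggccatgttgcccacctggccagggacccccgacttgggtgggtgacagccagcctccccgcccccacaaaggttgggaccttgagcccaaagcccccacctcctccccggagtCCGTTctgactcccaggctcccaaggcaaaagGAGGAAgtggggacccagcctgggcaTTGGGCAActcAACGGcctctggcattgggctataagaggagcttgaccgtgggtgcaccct
AZU1: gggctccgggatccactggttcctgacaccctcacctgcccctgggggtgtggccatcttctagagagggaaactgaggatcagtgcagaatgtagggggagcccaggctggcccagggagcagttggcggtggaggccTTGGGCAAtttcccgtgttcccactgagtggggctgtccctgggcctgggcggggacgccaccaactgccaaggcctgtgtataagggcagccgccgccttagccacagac
CTSG: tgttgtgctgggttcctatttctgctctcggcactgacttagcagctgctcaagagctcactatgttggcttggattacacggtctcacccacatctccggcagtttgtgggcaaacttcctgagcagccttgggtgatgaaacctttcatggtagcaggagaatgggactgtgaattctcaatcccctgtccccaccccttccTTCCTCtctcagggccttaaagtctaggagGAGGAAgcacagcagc
PRSS57: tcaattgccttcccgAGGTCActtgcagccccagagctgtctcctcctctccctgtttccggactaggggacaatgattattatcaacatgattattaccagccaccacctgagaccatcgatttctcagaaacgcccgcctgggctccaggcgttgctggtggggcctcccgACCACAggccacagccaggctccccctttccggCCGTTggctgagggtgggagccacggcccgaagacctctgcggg

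The motifs searched were GAGGAA (an ETS core as read by PU.1), TTGCNNAA (C/EBP), TGTGGT and TGCGGT (RUNX), AGGTCA and GGTTCA (nuclear receptor half-sites) and AACGG (MYB), and no match overlapped another. The promoters of PRTN3 and AZU1 both hold the letters TTGGGCAA, a C/EBP match on the minus strand, at bases 62 to 55 before the start in PRTN3 and 111 to 104 in AZU1. This motif is present in 9.05% of 35116 promoters of the same length. PRTN3 also has GAGGAA at bases 88 to 83 and AACGG on both strands, CTSG has GAGGAA on each strand (bases 46 to 41 and 16 to 11), and PRSS57 has the only RUNX match (TGTGGT, bases 77 to 72), a half-site AGGTCA and an AACGG. Of all promoters, 23.6% hold GAGGAA, 10.98% TGTGGT, 12.1% AGGTCA and 16.5% AACGG. These are matches of letters and not measured sites.

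PRTN3 rose with ATRA in both lines. In SKNO-1 it was at 10.7 and 5.19 CPM with DMSO, 27.5 and 32.2 with ATRA, 13.4 and 12.3 with Corin and 62.2 and 69.7 with both agents. The groups did not overlap and the libraries with both agents were the highest. The rise was 1.91 with ATRA (SE 0.28, adjusted p = 0.00451) and 3.06 with both agents (SE 0.28, adjusted p = 0.000104), and adding Corin to ATRA raised it by 1.14 (SE 0.26, adjusted p = 0.00773). In U-937 the levels were 48.5 and 35.6 CPM with DMSO, 124 and 133 with ATRA, 56.0 and 48.2 with Corin and 18.3 and 19.1 with both agents. Here the libraries with both agents were the lowest of all. PRTN3 rose with ATRA in U-937 by 1.61 (SE 0.13, adjusted p = 2.64e-09) and fell with both agents by 1.17 (SE 0.13, adjusted p = 1.28e-07), to 0.146 times its ATRA level. The effect of Corin alone did not pass in SKNO-1 (0.70, adjusted p = 0.0848) or U-937 (0.31, adjusted p = 0.117). In SKNO-1 it passed in 5 of 7 other settings, DESeq2 among them (0.0203). Over the fits that left out a library, this SKNO-1 effect ranged from 0.24 to 1.28, the highest without DMSO replicate 1. The SKNO-1 rise with both agents was 3.65 without DMSO replicate 1. The ATRA call in SKNO-1 was lost with only the libraries compared (adjusted p = 0.0878), and the call for Corin added to ATRA without ATRA replicate 1 (0.0649) or without the second library with both agents (0.0554).

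AZU1 moved less. In SKNO-1 it stood at 12.6 and 5.63 CPM with DMSO, 13.4 and 12.6 with ATRA, 9.20 and 10.4 with Corin and 19.5 and 24.4 with both agents, and in U-937 at 45.5 and 25.4, 58.0 and 64.5, 38.6 and 35.4, and 45.3 and 35.7 CPM in the same order. Of the comparisons with DMSO, 1 was called: with both agents in SKNO-1 azurocidin RNA rose by 1.27 (SE 0.31, adjusted p = 0.0119). This value was 1.95 without DMSO replicate 1, and the call was lost without the second library with both agents (1.09, adjusted p = 0.0779) and with only the libraries compared (adjusted p = 0.0589). The ATRA effect in U-937 was 0.79 (SE 0.29, adjusted p = 0.0943), with both ATRA libraries above both DMSO libraries. It was called with a replicate block (0.83, adjusted p = 0.0171), with DESeq2 (0.0385) and with the GC trend removed (0.0039), and ranged from 0.43 without DMSO replicate 2 to 1.27 without DMSO replicate 1.

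CTSG (chr14:24573518-24576250, minus strand) belongs to the granzyme and chymase cluster, apart from the other proteases. In U-937 it was at 713 and 658 CPM with DMSO, 773 and 857 with ATRA, 722 and 575 with Corin and 240 and 286 with both agents. The libraries with both agents were far below all others. Cathepsin G RNA fell with both agents to 0.384 times the DMSO mean (-1.38, SE 0.12, adjusted p = 8.77e-10), while ATRA alone gave 0.25 (adjusted p = 0.106) and Corin alone -0.08 (adjusted p = 0.741). In SKNO-1 its levels were 12.6 and 9.08 CPM with DMSO, 6 and 6.32 with ATRA, 11.5 and 12.5 with Corin and 8.60 and 9.69 with both agents. CTSG fell with ATRA there (-0.81, SE 0.17, adjusted p = 0.0266), and adding Corin to ATRA raised it by 0.57 (SE 0.17, adjusted p = 0.0273). Both SKNO-1 calls were lost without any single treated library (adjusted p 0.0619 to 0.169 for ATRA against DMSO and 0.0545 to 0.154 for Corin added to ATRA), and that for ATRA also with a replicate block (0.0599) and with only the libraries compared (0.177). Its neighbours CMA1, GZMH and GZMB, the chymase and granzyme genes, were not tested in SKNO-1, and in U-937 only GZMH was, with 2 counts in the DMSO group and 34 in the Corin group (3.77, SE 0.91, adjusted p = 0.0045).

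CST7 encodes cystatin F, an endolysosomal inhibitor of cathepsin C and other cysteine cathepsins, and lies on the plus strand of chr20:24949269-24959928. In SKNO-1 it stood at 153 and 116 CPM with DMSO, 35.9 and 35.7 with ATRA, 41.2 and 36.0 with Corin and 9.82 and 9.63 with both agents. Each agent alone took it below both DMSO libraries and the pair took it lower again. CST7 fell by 1.91 with ATRA (SE 0.13, adjusted p = 0.000113), by 1.80 with Corin (SE 0.13, adjusted p = 5.33e-05) and by 3.79 with both agents (SE 0.15, adjusted p = 1.7e-06), a 13.8-fold difference of means. In U-937 its levels were 382 and 376 CPM with DMSO, 116 and 129 with ATRA, 352 and 296 with Corin and 63.3 and 67.9 with both agents. ATRA and both agents lowered it by 1.63 (SE 0.11, adjusted p = 1.35e-11) and 2.53 (SE 0.11, adjusted p = 1.68e-15), and Corin alone gave -0.22 (SE 0.10, adjusted p = 0.171). These 5 calls held in every fit that left out a library and under every other setting.

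Of the enzymes that cystatin F can inhibit, CTSC, the activator of the granule proteases, fell with Corin (-0.31) and with both agents (-0.45) in SKNO-1 and with both agents in U-937 (-0.30). Cathepsin H, CTSH, went the other way: it rose with Corin in SKNO-1 (1.76, SE 0.10, adjusted p = 2.02e-05) and in U-937 (0.64, SE 0.11, adjusted p = 0.000172) and with both agents in each line (1.65 and 0.98). Cathepsin L, CTSL, rose with Corin in SKNO-1 by 0.97 and was not tested in U-937.

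LYZ, lysozyme, which cleaves bacterial peptidoglycan, lies on the plus strand of chr12:69348381-69354234. It overlaps an antisense long noncoding RNA gene with 0 to 3 counts per library, and the strand setting of the counting is not given in the sources used here. In SKNO-1 it stood at 59.6 and 64.2 CPM with DMSO, 48.8 and 45.4 with ATRA, 326 and 306 with Corin and 390 and 375 with both agents. In U-937 it was at 216 and 244 with DMSO, 285 and 278 with ATRA, 2349 and 1961 with Corin and 2557 and 2775 with both agents. In both lines every library with Corin lay above every library without it. Lysozyme RNA rose with Corin by 2.35 in SKNO-1 (SE 0.07, adjusted p = 1.09e-06) and by 3.23 in U-937 (SE 0.13, adjusted p = 1.66e-14), which is 5.11-fold and 9.38-fold on the means, and with both agents by 2.63 and 3.54. All 4 of these calls held in each alternative fit. With ATRA alone LYZ fell slightly in SKNO-1 (-0.40, SE 0.07, adjusted p = 0.0113), a call lost without ATRA replicate 2 (adjusted p = 0.0817) and with only the libraries compared (0.176). In U-937 the value for ATRA was 0.29 (adjusted p = 0.0568), and it was called in 9 of 15 alternative fits, among them DESeq2 (0.0336) and only the libraries compared (0.00458). Adding ATRA to Corin raised it in SKNO-1 (0.27, adjusted p = 0.0397) and U-937 (0.31, adjusted p = 0.0316). Each of these small differences lost its call in most fits that left out a library, with values of 0.22 to 0.32 in SKNO-1 and 0.18 to 0.44 in U-937. On library totals alone neither passed (adjusted p = 0.126 and 0.0761).

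Of the monocyte markers, VCAN was higher with Corin, as LYZ was, and FCN1 was not. CD14 and CSF1R together, the rest of the summed level given below, were also higher with Corin than with DMSO in U-937. The summed level of CD14, FCN1, VCAN and CSF1R in SKNO-1 was 1.45 to 2.57 CPM without Corin, 47.3 and 53.8 CPM with Corin and 28.4 and 30.1 CPM with both agents. CD14 and FCN1, its most specific members, had 0 counts in the SKNO-1 DMSO and ATRA libraries, FCN1 stayed at 0 in all groups of that line, and CD14 reached at most 0.810 CPM. In U-937 the sum was 23.9 and 24.3 CPM with DMSO, 14.9 in each ATRA library, 52.9 and 56.7 with Corin and 48.2 and 49.8 with both agents. FCN1 did not rise there with lysozyme (21.6 and 21.2 CPM with DMSO, 20.8 and 19.6 with Corin), while VCAN went from 1.97 and 1.70 CPM to 25.1 and 23.8. The sum did not follow lysozyme throughout: it was lower with both agents than with Corin in SKNO-1, and lower with ATRA than with DMSO in U-937, where LYZ was not lower. The part of these markers in the lysozyme result was not tested.

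SRGN, serglycin (chr10:69088103-69104805, plus strand), carries no enzyme activity. In SKNO-1 it stood at 332 and 390 CPM with DMSO, 893 and 897 with ATRA, 377 and 346 with Corin and 1173 and 1110 with both agents. Every library with ATRA lay above every library without it, and the Corin pair lay within the DMSO pair. Serglycin RNA rose with ATRA by 1.31 (SE 0.08, adjusted p = 8e-05) and with both agents by 1.66 (SE 0.09, adjusted p = 7.02e-06), and Corin alone gave 0.00 (SE 0.08, adjusted p = 0.998). In U-937 the levels were 936 and 1035 CPM with DMSO, 2713 and 2702 with ATRA, 1996 and 1683 with Corin and 2317 and 2653 with both agents. SRGN rose with each treatment there: by 1.46 with ATRA (SE 0.13, adjusted p = 2.32e-09), by 0.90 with Corin (SE 0.13, adjusted p = 1.59e-05) and by 1.33 with both agents (SE 0.13, adjusted p = 2.38e-09). Adding Corin to ATRA raised it by 0.35 in SKNO-1 (adjusted p = 0.00993, lost without the first library with both agents at 0.0792), and the value in U-937 was -0.12 (adjusted p = 0.441).

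Counted over the set, ATRA raised 2 and lowered 3 of the 9 members in SKNO-1, where 6.76% of all genes tested were called (2.96% higher and 3.79% lower). It raised 3 and lowered 1 of the 8 tested in U-937, where 41.8% were called (21.7% higher and 20.1% lower). PRTN3, SRGN and CST7 were called in the same direction in both lines. Corin raised 1 and lowered 4 in SKNO-1 (37.9% of all genes called, 20.5% higher and 17.3% lower) and raised 2 and lowered none in U-937 (12.9% called, 8.55% higher and 4.4% lower), and LYZ was the 1 gene raised in each. Both agents raised 4 and lowered 1 in SKNO-1 (46.7% called, 24.7% higher and 22% lower) and raised 3 and lowered 4 in U-937 (65.3% called, 33.1% higher and 32.2% lower). For Corin in SKNO-1 and for both agents, with such shares among all genes, 5 of 9 or 7 of 8 called members says little of the set. For ATRA in SKNO-1 5 of 9 was above the share of all genes (6.76%). That count was 2 with only the libraries compared, and the members were chosen with earlier results of these data known. The median log2 fold change of the members was 0.18, 0.00 and -0.24 in SKNO-1 for ATRA, Corin and both agents, and 0.78, 0.18 and -0.49 in U-937, beside medians of all genes tested between 0.00 and 0.05. The medians hide opposite movements. The SKNO-1 counts ranged from 3 to 9 called members for ATRA and for Corin when single libraries were left out, the 9 being reached without DMSO replicate 1.

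**Figure D3:**
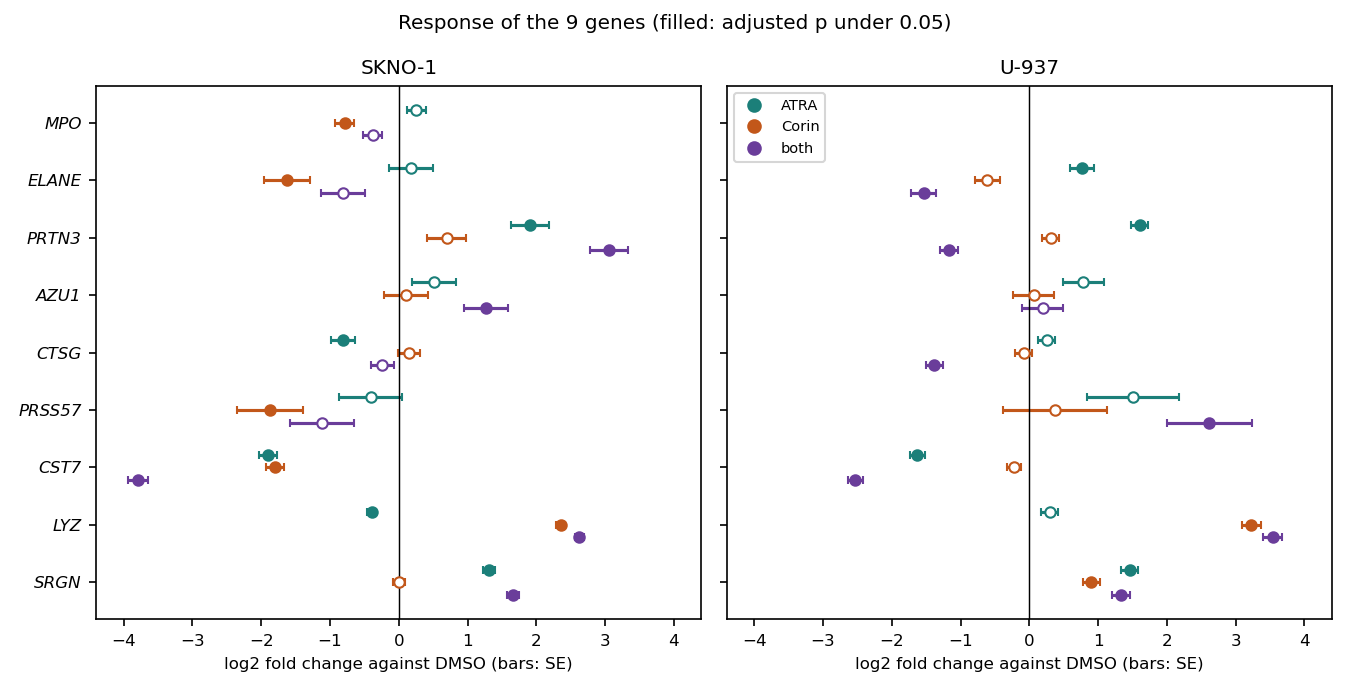
Log2 fold change against DMSO for each treatment, with SE as bars, in SKNO-1 and U-937; filled symbols have an adjusted p under 0.05 and MPO was not tested in U-937. LYZ lies right of zero wherever Corin was given, CST7 left of zero wherever ATRA was given, and PRTN3 with both agents is at 3.06 (SKNO-1) and -1.17 (U-937).

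Corin added to ATRA raised PRTN3, CTSG, LYZ and SRGN and lowered MPO, ELANE and CST7 in SKNO-1 (44.8% of all genes called, 23% higher and 21.8% lower). In U-937 it raised LYZ and lowered ELANE, PRTN3, CTSG and CST7 (47.4% called, 22.5% higher and 24.8% lower). The ELANE value in SKNO-1 (-0.99) did not pass without any single treated library (adjusted p 0.0717 to 0.165). In U-937 those falls were -2.30, -2.78, -1.63 and -0.90. ATRA added to Corin raised PRTN3 by 2.36, SRGN by 1.66 and LYZ by 0.27 and lowered CST7 by 1.99 in SKNO-1 (10.4% called, 4.82% higher and 5.6% lower). In U-937 it raised PRSS57 by 2.24, SRGN by 0.43 and LYZ by 0.31 and lowered ELANE, PRTN3, CTSG and CST7 by 0.92, 1.48, 1.30 and 2.30 (60.5% called, 29.9% higher and 30.6% lower). The SRGN value did not pass without Corin replicate 2 or without the second library with both agents (adjusted p = 0.0656 and 0.0523). All these comparisons share libraries with those against DMSO.

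Whether both agents did what the sum of the single effects would give was tested as an interaction. In U-937, 5 of the 8 tested members were called below the sum and none above it, where 23.4% of all genes were called (8.09% above and 15.3% below). PRTN3 departed by -3.09 (SE 0.18, adjusted p = 1.22e-10), ELANE by -1.69 (SE 0.26, adjusted p = 0.00105), CTSG by -1.55 (SE 0.17, adjusted p = 2.83e-07), SRGN by -1.02 (SE 0.18, adjusted p = 0.000118) and CST7 by -0.67 (SE 0.15, adjusted p = 0.00147). For the 3 proteases the sum was positive and the measured change negative. For SRGN both were positive, and for CST7 both were negative. LYZ in U-937 departed by 0.01 (SE 0.17, adjusted p = 0.973). In SKNO-1 LYZ was the 1 member called (0.67, SE 0.10, adjusted p = 0.0306), in a contrast with 0.463% of genes called (0.315% above and 0.149% below). That call was lost without any single treated library (adjusted p up to 0.26), on library totals (0.0858) and with a replicate block (0.0958).

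**Figure D4:**
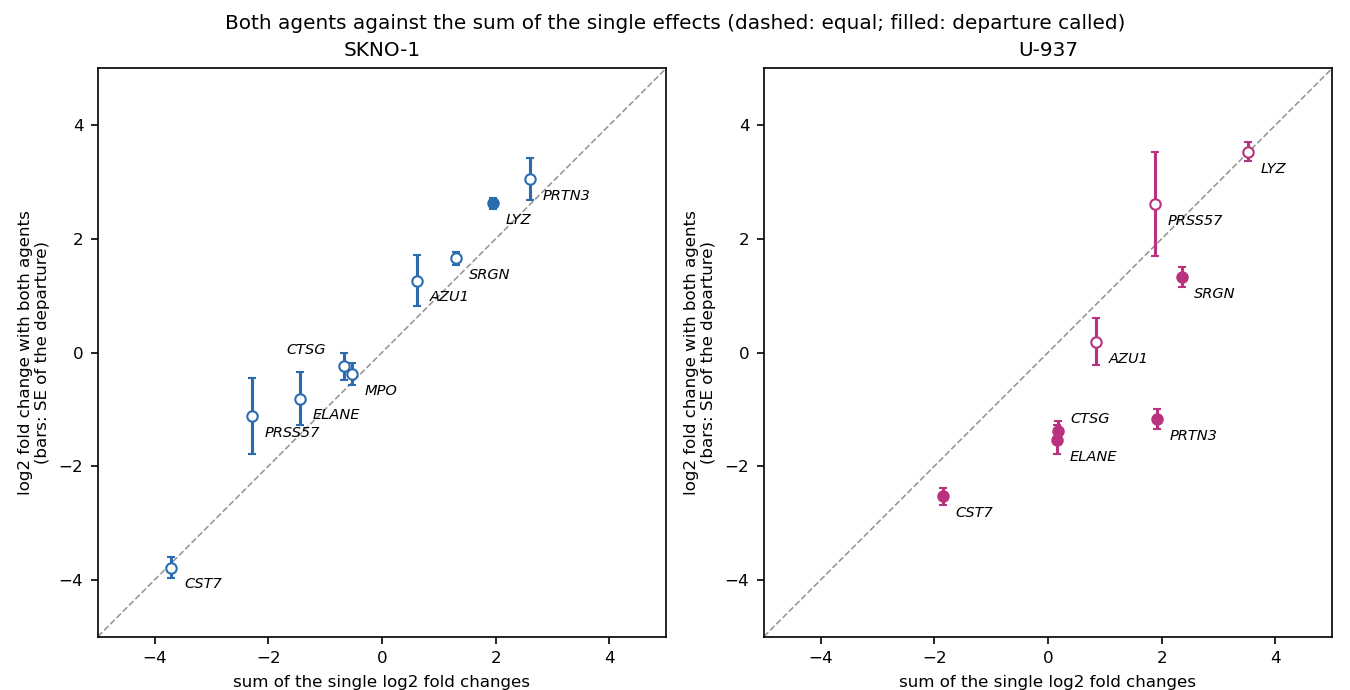
Log2 fold change with both agents (vertical axis) against the sum of the log2 fold changes of ATRA alone and Corin alone (horizontal axis); bars are the SE of the departure, the dashed line marks equality and filled symbols are called departures. In U-937 PRTN3, ELANE, CTSG, SRGN and CST7 lie below the line, and in SKNO-1 only LYZ, above it, is filled.

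Differences in response between the lines were tested as interactions over all 16 libraries. The largest among the members was that of PRTN3 with both agents, -4.19 (SE 0.35, adjusted p = 1.72e-06), which lay between -4.80 and -3.62 over all alternatives. With both agents CTSG responded lower in U-937 (-1.10), and CST7 (1.30), LYZ (0.95) and PRSS57 (3.75) higher, so that 5 of 9 members were called beside 40.6% of all genes (17.9% higher and 22.7% lower). With Corin, CST7 (1.57), SRGN (0.90) and LYZ (0.88) responded higher in U-937 (12.8% called, 5.28% higher and 7.49% lower), and with ATRA CTSG (1.10) and LYZ (0.73) did (19.4% called, 10.6% higher and 8.81% lower). The PRSS57 difference rests on few counts in U-937 and passed in 7 of 16 fits that left out a library (adjusted p = 0.0359 with all libraries). It ranged from 2.65 without SKNO-1 DMSO replicate 1 to 5.75 without U-937 DMSO replicate 1.

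ELANE, PRTN3 and AZU1 lie side by side on chromosome 19 with CFD, the gene of complement factor D, a serine protease of the same family, and PRSS57 lies further towards the telomere. CFD rose with ATRA in SKNO-1 (1.57, SE 0.21, adjusted p = 0.00327) and U-937 (2.55, SE 0.17, adjusted p = 2.06e-11) and with both agents in each (2.24 and 2.45). Its levels with both agents were 31.3 and 35.3 CPM in SKNO-1 and 19.6 and 23.4 CPM in U-937, against 8.88 and 5.24, and 4.51 and 3.33, with DMSO. CFD thus stayed raised in U-937 with both agents, where the adjacent ELANE and PRTN3 were below DMSO. Of the 8 tested neighbours of the proteases, CFD was the 1 called with ATRA in SKNO-1, and CFD, ARID3A (0.45) and FSTL3 (-0.61) were called in U-937, beside 6.76 and 41.8% of all genes. With both agents 4 of 8 rose and none fell in SKNO-1 (46.7% of all genes called, 24.7% higher and 22% lower). In U-937 3 rose and 3 fell (65.3% called, 33.1% higher and 32.2% lower). Counted in either direction these shares were near those of all genes. The SKNO-1 calls were all rises, but these are 4 genes set against the DMSO pair with its GC-related difference. The part of GC content in them was not tested. FSTL3, a follistatin-like inhibitor of activin, rose by 2.41 with both agents in SKNO-1 and fell by 0.50 in U-937. RNF126 was not analysed here.

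**Figure D5:**
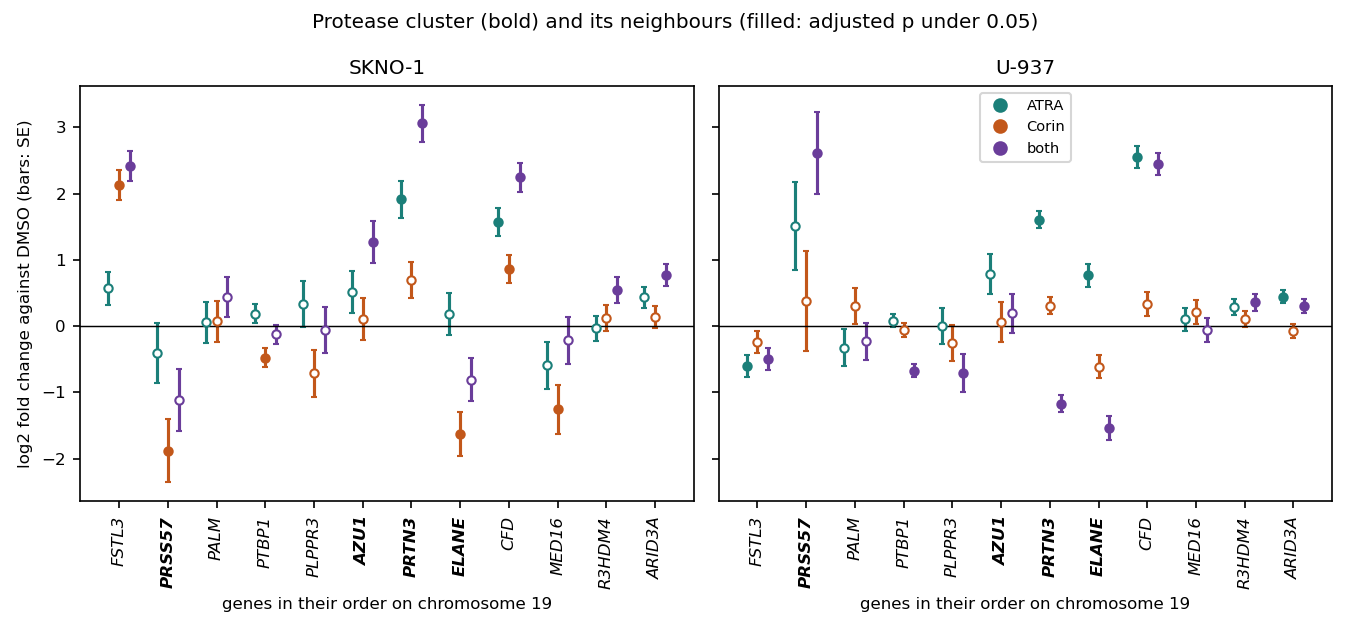
Log2 fold change against DMSO with SE for genes in their order on chromosome 19, members in bold; filled symbols have an adjusted p under 0.05 and spacing is not to scale. CFD is raised with ATRA and with both agents in both lines, while PRTN3 with both agents is at 3.06 (SKNO-1) and -1.17 (U-937), and ELANE at -0.81 and -1.54.

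Of 8 other azurophil proteins listed, 3 passed the filter on low counts in SKNO-1. CD68, a lysosomal and granule membrane glycoprotein, rose there with ATRA, Corin and both agents (1.31, 2.56 and 3.30), while CD63 fell in all 3 comparisons (-0.29, -0.35 and -0.70). MS4A3, a membrane protein of granulocyte-monocyte precursors, fell with ATRA (-1.21) and both agents (-0.66) and rose with Corin (0.84). In U-937 ATRA raised 6 of 7 tested genes and lowered none, where it raised 21.7% of all genes and 41.8% were called. DEFA1, DEFA3 and DEFA4 had almost no counts outside the ATRA libraries and passed the filter only through them. Their direction with ATRA was thus fixed in advance, and the count cannot be weighed against the share of all genes. BPI, the bactericidal protein that binds lipopolysaccharide, rose from 0.501 and 0.170 CPM with DMSO to 6.98 and 6.62 with ATRA and to 72.2 and 82.7 with both agents (4.30 and 7.81, SE 0.25 and 0.22, adjusted p = 2.25e-12 and 6.49e-19). BPI therefore rose most where ELANE, PRTN3 and CTSG fell. Of the 7 tested genes of this list in U-937, 3 rose and 1 fell with both agents (33.1% of all genes rose and 32.2% fell). Adding Corin to ATRA raised 1 and lowered 4 of them (22.5% of all genes rose and 24.8% fell). For the same reason DEFA1, DEFA3 and DEFA4 could hardly be anything but lower in that comparison. The defensins DEFA1 and DEFA3 had 0 counts in all U-937 libraries with DMSO, Corin or both agents. With ATRA DEFA1 had 63 and 47 counts and DEFA3 16 and 22, at least 32.5-fold and 11.2-fold higher than a floor of 3 counts over the DMSO group. They are near-identical copies whose reads cannot be divided with certainty. DEFA4 had 1 count over both DMSO libraries, 34 and 60 with ATRA, 0 with Corin and 2 over both libraries with both agents.

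Proteins of the later specific and gelatinase granules passed the filter on low counts for 2 of 13 in SKNO-1 and for 6 in U-937. In SKNO-1 the cobalamin carrier TCN1 fell with ATRA (-3.09) and rose with Corin (3.49). In U-937 Corin raised all 6 tested genes (8.55% of all genes rose), with HP, haptoglobin, at 3.10, MMP8, neutrophil collagenase, at 3.83 and CAMP, the cathelicidin, at 2.01, and both agents raised 5 (33.1% of all genes rose), with HP at 7.23 and CAMP at 4.11. The chitinase-like CHI3L1 rose with ATRA, Corin and both agents by 2.89, 1.44 and 3.33.

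Of 8 tested inhibitors of granule proteases and cathepsins, 6 rose and 1 fell with both agents in SKNO-1 (24.7% of all genes rose and 22% fell), and 7 rose and 1 fell in U-937 (33.1% rose and 32.2% fell). With ATRA alone 2 rose and 2 fell in SKNO-1 (2.96% rose and 3.79% fell). SERPINB1, which blocks elastase, proteinase 3 and cathepsin G inside the cell, rose with ATRA in both lines (0.51 and 0.46) and fell with Corin in U-937 (-0.47). SERPINB9, the granzyme B inhibitor, rose with Corin in SKNO-1 by 2.25 and was not tested in U-937, and SERPINB8 rose in both lines with Corin (4.65, SE 0.51, and 0.89, SE 0.10). SLPI, the secreted elastase inhibitor, rose in U-937 with ATRA, Corin and both agents (0.79, 0.69 and 1.55). SERPINA1, the antitrypsin gene, fell with ATRA in SKNO-1 (-0.90) and rose in U-937 (1.05).

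Of 10 enzymes of haem synthesis and chaperones of myeloperoxidase, 4 fell with Corin in SKNO-1 and none rose (17.3% of all genes fell and 20.5% rose). With both agents 6 fell and 2 rose in U-937 (65.3% of all genes called, 32.2% lower and 33.1% higher). Counted in either direction the SKNO-1 share was near that of all genes (37.9%). That all calls were falls rests on 4 genes and was not tested. ALAS1, the first enzyme of haem synthesis, rose with ATRA in both lines (0.54 and 2.38), although U-937 held almost no MPO RNA, and calreticulin, CALR, fell with both agents in both lines (-0.99 and -0.59). Of the enzymes that build the chains of serglycin, XYLT1 rose (0.86) and the sulfotransferase CHST11 fell (-0.24) with ATRA in SKNO-1, out of 9 tested (6.76% of all genes called). In U-937 5 of 10 fell and 2 rose (20.1% of all genes fell and 21.7% rose), CHST11 among the former (-1.18), while SRGN rose in both lines.

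Among 9 transcription factors known to act on granule genes, CEBPB rose with ATRA in both lines (0.57 and 1.83) and with both agents (2.06 and 2.61). CEBPE, the factor of late granulocyte precursors, rose with ATRA (2.85) and both agents (3.23) in U-937 and fell with Corin in SKNO-1 (-1.08). With both agents CEBPA rose by 1.58 in SKNO-1 and fell by 0.36 in U-937. MYB likewise rose by 0.41 in SKNO-1 and fell by 0.97 in U-937, while CBFB fell in both (-0.73 and -0.75). In all, 3 of 9 rose and 1 fell in SKNO-1 with both agents (46.7% of all genes called, 24.7% higher and 22% lower). In U-937 3 rose and 4 fell (65.3% called, 33.1% higher and 32.2% lower). Counted in either direction, this is near the share of all genes.

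Across the 8 libraries of a line, log2 levels of some members ran in parallel, given as a description since the libraries share treatments. In SKNO-1 MPO with ELANE had r = 0.987, ELANE with PRSS57 0.956 and PRTN3 with AZU1 0.928, and LYZ ran against MPO (-0.849). The DMSO pair with its GC-related difference takes part in these values. In U-937 ELANE with PRTN3 had r = 0.926 and ELANE with CTSG 0.897, whereas in SKNO-1 ELANE with PRTN3 had 0.103. The U-937 DMSO pair and the pair with both agents, which also differed with GC content, take part in the U-937 values. Outside the set, the genes whose pattern over both lines was most like a member's (highest mean of both within-line correlations among 8896 protein-coding genes) were RPS6KA4 and MCRS1 for ELANE (mean r 0.981 and 0.976), STAR and TUBA4A for PRTN3 (0.968 and 0.942), NCKIPSD and PLCB3 for AZU1 (0.935 for NCKIPSD), DDB2 and MS4A3 for CTSG (0.947 and 0.928), CLNS1A and DUSP3 for CST7 (0.987 and 0.978), CAMSAP2 and FOSL2 for LYZ (0.987 and 0.984) and EDEM1 and LBR for SRGN (0.962 and 0.947). MPO and PRSS57 were too low in U-937 for this comparison.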

How the data were processed

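Estimated counts per gene were deposited by the authors for 16 libraries, as 1 table and as single files whose values differed from it by 0 at most. Per the submitters' processing notes, Trimmomatic, STAR, RSEM and hg38 were used; which annotation release and strand setting were used is not given in the sources used here. Per the labels' protocols, RNA went through a stranded total RNA kit with an ERCC spike-in, whose entries number 0 in the table, so RNA per cell was not measured. The labels name paired-end reads, while the file names carry a single-end mark, so a count may be a read or a fragment. RSEM divides reads between genes (20.4% of positive values were not whole). The TPM values are the authors' RSEM output per the file headers; they were used only to order genes within a group, and a library's TPM also depends on its other RNA. The authors also deposited tables of log2 fold changes, adjusted p-values and mean normalised signal from DESeq2 per the file headers; no value from them is given here.

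Counts were rounded (largest change of a total 42.03), filtered with filterByExpr (17479 genes in SKNO-1, 17717 in U-937, 19872 in both lines), scaled by TMM and tested with edgeR 4.0.16 (R 4.3.3), using the robust quasi-likelihood F test on the 8 libraries of a line (4 residual degrees of freedom) or on all 16 (8 residual degrees of freedom), with no replicate block. Adjusted p-values are from this test with Benjamini-Hochberg adjustment over all genes, and under 0.05 counts as called. Each SE was obtained from the fold change before shrinkage and the square root of its F value, and covers only the spread between libraries. Fold changes on means and levels are CPM on TMM-scaled totals within a line. Positions and GC content come from GENCODE release 44 (60306 genes matched), promoters from RefSeq (GRCh38.p14). Alternatives were DESeq2 1.42.0, library totals, no filter, a replicate block, removal of the GC trend, block and GC together, only the libraries compared, and leaving out each library. The fitting code was tested on simulated data. The members and the gene lists were chosen with earlier results of these data known, all members are named, and genes of 9 lists are given by counts, some with their values. For likeness, a member needed a mean of at least 1 CPM and other genes 5 CPM in each line.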

Additional observations from a re-analysis of the deposited data

Results flagged for a closer look

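The following responses differed between the lines in the interaction test of edgeR over all 16 libraries (U-937 minus SKNO-1, log2, Benjamini-Hochberg adjusted). For ATRA these were CTSG (1.0967, adjusted p = 0.000673) and LYZ (0.7294, 0.00124). CTSG had fallen with ATRA in SKNO-1 and was at 0.25, not called, in U-937, and LYZ was at -0.40 and 0.29. For Corin they were CST7 (1.57, 1.46e-06), LYZ (0.8768, 0.000377) and SRGN (0.9009, 0.000664). CST7 fell with Corin in SKNO-1 and was at -0.22, not called, in U-937, SRGN was at 0.00 and 0.90, and LYZ rose in both lines, further in U-937.

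For both agents the differences were PRTN3 (-4.1913, 1.72e-06), CTSG (-1.0996, 0.000193), PRSS57 (3.7509, 0.0359), CST7 (1.2981, 3.26e-06) and LYZ (0.9547, 2.41e-05). Against DMSO, PRTN3 is the 1 member called in opposite directions in the lines under the same treatment, with both libraries of the combination above both DMSO libraries in SKNO-1 and below them in U-937. All of these calls except that of PRSS57 held in every fit that left out a library and in every other setting. The lines differ in origin and in medium, and these cannot be told apart.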

How the results depend on the processing

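Of 2337 values of the members under the alternatives, 2097 stayed on their side of the threshold, 77 lost the call and 159 gained it; 61 changed sign, of which 57 were called in neither fit. The 4 others arose without a SKNO-1 DMSO library: PRSS57 with ATRA was 0.6613 without replicate 1 and -1.0735 without replicate 2, SRGN with Corin -0.1342 and 0.1028, ELANE with ATRA 0.878 and -0.3524, and AZU1 with Corin 0.7751 and -0.3846. The LYZ rises with Corin and both agents, the SRGN rises with ATRA and the CST7 falls with ATRA and both agents kept their calls throughout.

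The number of called members in SKNO-1 with ATRA (5) was 8 with no filter and 2 with only the libraries compared; with both agents (5) it was 8 with no filter, 9 with the GC trend removed and 9 with block and GC; for ATRA added to Corin (4) it was 8 with no filter and 9 with only the libraries compared. For the interaction in SKNO-1 (1) it was 0 on library totals, 5 with no filter, 0 with the block, 2 with GC removed and 2 with block and GC. In U-937 with Corin (2) it was 4 with GC removed, 4 with block and GC and 4 with only the libraries compared. Between the lines it was 4 for ATRA (2) with GC removed and 5 for Corin (3) with GC removed and with block and GC. Leaving out single libraries gave, in SKNO-1, 3 to 9 for ATRA, 3 to 9 for Corin, 4 to 9 for both agents, 3 to 9 for Corin added to ATRA, 3 to 9 for ATRA added to Corin and 0 to 8 for the interaction, and elsewhere 2 to 4 for Corin in U-937, 2 to 5 for the ATRA and 3 to 5 for the Corin difference between lines. The highest counts came without a DMSO library. The cause was not tested.

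With the GC trend removed, MPO (-0.62), ELANE (-1.27), CTSG (-0.44) and PRSS57 (-1.54) were called lower with both agents in SKNO-1, and the PRTN3 rise for ATRA added to Corin was 1.67. Library totals alone shifted the median of all genes by more than 0.1 in U-937 for both agents against DMSO (-0.12) and against Corin (-0.13), between the DMSO groups of the lines (0.16) and in the difference of responses to both agents (-0.16). Same-numbered libraries did not deviate together throughout. Correlations of deviations ran from -0.49 (SKNO-1 DMSO with ATRA) to 0.42 (U-937 DMSO with both agents), so the numbers were not taken as pairs. With the replicate block 5 calls were lost, all named in the results or at LYZ for ATRA added to Corin (0.0741 and 0.0549) and PRSS57 between lines (0.0656), and 2 were gained, both of AZU1 in U-937 (ATRA against DMSO, 0.0171, and Corin added to ATRA, 0.046).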
